A study of Homo sapiens with 6 samples.

Results

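Molecular chaperones keep proteins from aggregating and help them to fold, and many were first found as genes switched on by heat. HSP70 proteins bind exposed stretches of unfolded clients in a cycle driven by ATP. J proteins, named DNAJ in human, bring clients to HSP70 and stimulate its ATPase, while HSP110 proteins exchange the nucleotide. HSP90 acts late in the folding of kinases and receptors, HSPD1 and HSPE1 form the folding chamber of mitochondria, and small heat shock proteins hold unfolded proteins without using ATP. The factor HSF1 drives many of these genes from heat shock elements in their promoters.

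The genes were chosen by symbol alone: HSPA, HSPB, HSP90, HSPD1, HSPE1, HSPH1 and the DNAJA, DNAJB and DNAJC series. They number 77 of the 23284 genes in the deposited table, after 7 pseudogenes whose symbols carry a P suffix were left out. Of these, 73 are chaperone genes, and the others are the pseudogene HSPA7, the antisense RNAs DNAJB8-AS1 and DNAJC27-AS1, and the readthrough transcript DNAJC25-GNG10. Messenger RNA was sequenced from wild-type cells of the human embryonic stem cell line WA01 as labelled embryonic stem (ES) cells on day 0, as pre-neural crest (preNC) cells on day 3 and as neural crest (NC) cells on day 5, with 2 libraries per stage. The labels give every library, day 0 included, 1 protocol: a Matrigel coat seeded with 20000 cells per cm2, 3 µM CHIR99021 (a GSK3 inhibitor), 2% B27, 0.5% bovine serum albumin and, at the start, Y-27632 (a ROCK inhibitor) at 10 µM. WA01 is 1 line, no heat or other stress treatment is named, and whether the libraries of a stage came from separate cultures is not stated, so p-values may measure only technical spread.

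Levels below are the authors' FPKM, fragments per kilobase of transcript scaled to the mapped total, given once per stage with both libraries combined. A gene is called where the authors' Cuffdiff test was run and its q-value lay below 0.05. A ± beside a log2 ratio is the standard error implied by the authors' test statistic (the log2 ratio divided by it), which is a description and not the basis of the call. The stage markers followed their labels, with POU5F1 at 1087, 85.3 and 9.40 FPKM on days 0, 3 and 5, and PAX3 at 0.253, 3.36 and 39.9 FPKM. The 7 neural crest markers summed to 31.0, 18.6 and 134 FPKM, and mesendoderm, trophoblast and endoderm marker lists stayed at or below 3.17 FPKM in sum. In bulk RNA, fewer cells of a type and less RNA per cell cannot be told apart.

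Chaperones included some of the most abundant messages of these cells. On days 0, 3 and 5, 60, 59 and 57 of the 77 genes reached an FPKM of 1, and 13, 10 and 8 reached 100. The cytosolic HSP90 beta gene HSP90AB1 ranked 99, 124 and 112 among all genes, at 1406, 1109 and 1070 FPKM. HSPA8, the constitutive cytosolic HSP70, stood at 1051, 1082 and 544 FPKM. Together the 8 most abundant members held 76.3%, 76.0% and 74.3% of the members' summed FPKM, which was 6694, 5965 and 4807. That sum was 0.646%, 0.579% and 0.545% of the FPKM of all genes. At the other end DNAJB3, DNAJB8, DNAJB8-AS1 and HSPB3 were listed at 0 on every day, and 10 members were tested in no comparison.

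**Figure D1:**
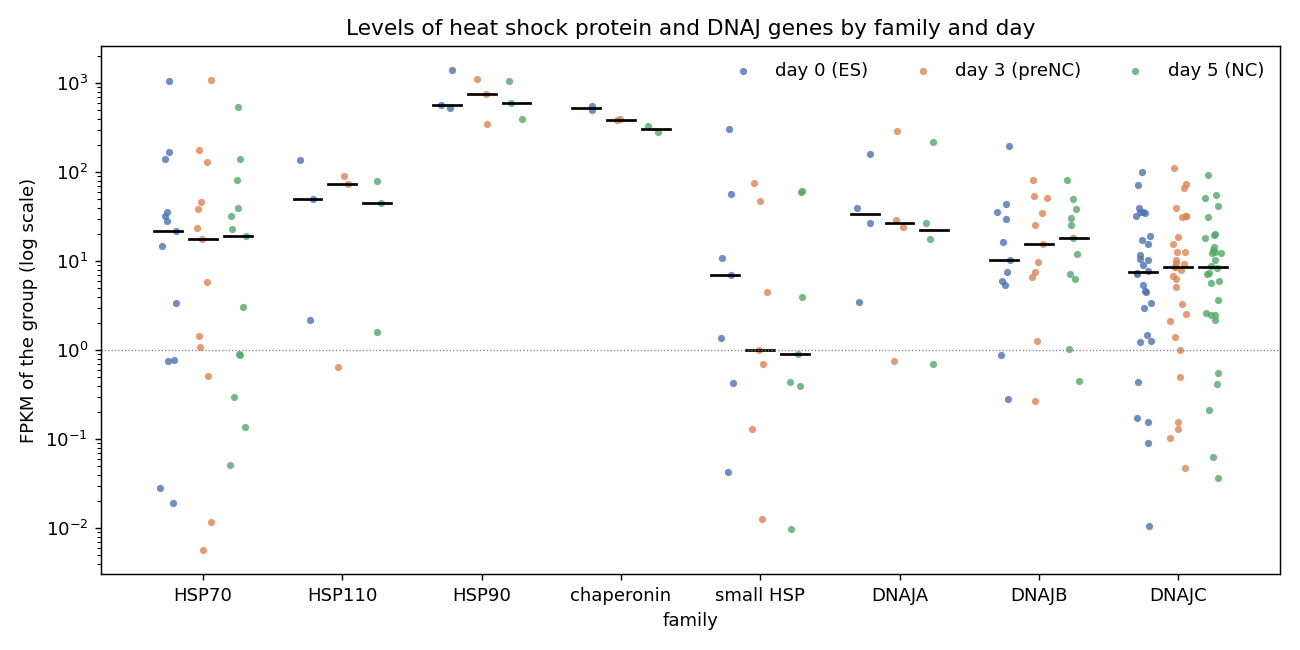
Levels of heat shock and DNAJ genes by family on day 0 (ES), day 3 (preNC) and day 5 (NC), as the authors' FPKM on a log axis with both libraries of a stage combined. Each point is a gene, black bars are medians of the members above 0, and the grey dotted line marks an FPKM of 1. HSP90, the mitochondrial chaperonin and a few HSP70 genes lie highest, while members listed at 0 are not drawn.

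Promoter sequences are printed for 7 members, chosen because they carry a stress element in the searched window and are either abundant or among the larger changes, a choice made after their values were seen. They come from RefSeq on GRCh38.p14, a different build from the hg19 of the expression table, and cover the 250 bases before an annotated start, read 5′ to 3′ on the gene's strand. Windows of 300 bases, from 250 before to 50 after the start, were found for 67 members and searched on both strands. The heat shock element of 3 units, GAANNTTCNNGAA, lay in 7 of 86 members' windows (8.14%) and in 172 of 35116 windows in all (0.490%). Each such match also holds the shorter forms GAANNTTC and TTCNNGAA, which stood in 20.9% and 15.1% of members' windows against 6.77% and 7.74% of all windows. The ER stress element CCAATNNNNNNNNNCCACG was found in the windows of HSPA5 and HSP90B1 (2.33% of members' windows, 0.0769% of all). A match is a description of letters and not a binding site, and no match says nothing of the factor.
The next 3 sequences carry the 3-unit heat shock element, in capitals, and lie at chr11:123062137-123062386 (minus strand), chr6:44247693-44247942 (plus strand, 1 of 3 windows of HSP90AB1) and chr7:157336754-157337003 (plus strand).
HSPA8: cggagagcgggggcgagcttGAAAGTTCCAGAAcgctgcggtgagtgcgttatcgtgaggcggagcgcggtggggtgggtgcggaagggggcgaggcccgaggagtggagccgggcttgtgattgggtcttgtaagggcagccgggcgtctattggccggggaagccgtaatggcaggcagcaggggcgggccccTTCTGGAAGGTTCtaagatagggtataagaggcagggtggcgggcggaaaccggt
HSP90AB1: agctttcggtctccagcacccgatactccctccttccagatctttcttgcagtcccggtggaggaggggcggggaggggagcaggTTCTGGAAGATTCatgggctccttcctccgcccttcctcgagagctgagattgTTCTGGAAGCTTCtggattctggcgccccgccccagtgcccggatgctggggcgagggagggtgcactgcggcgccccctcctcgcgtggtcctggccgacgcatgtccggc
DNAJB6: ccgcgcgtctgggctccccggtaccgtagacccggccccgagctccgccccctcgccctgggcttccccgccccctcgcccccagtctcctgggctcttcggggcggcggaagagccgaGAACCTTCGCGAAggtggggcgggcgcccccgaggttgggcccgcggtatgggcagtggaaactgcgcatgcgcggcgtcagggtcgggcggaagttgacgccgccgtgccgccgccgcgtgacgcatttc
The small heat shock genes HSPB1 and HSPB8 carry only the 2-unit form GAANNTTC, in capitals, at chr7:76302423-76302672 and chr12:119178681-119178930 (both plus strand).
HSPB1: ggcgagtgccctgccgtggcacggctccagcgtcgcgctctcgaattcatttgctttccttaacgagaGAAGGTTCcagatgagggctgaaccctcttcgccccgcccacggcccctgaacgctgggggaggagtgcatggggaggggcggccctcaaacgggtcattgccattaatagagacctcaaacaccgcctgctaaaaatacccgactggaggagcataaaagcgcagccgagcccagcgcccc
HSPB8: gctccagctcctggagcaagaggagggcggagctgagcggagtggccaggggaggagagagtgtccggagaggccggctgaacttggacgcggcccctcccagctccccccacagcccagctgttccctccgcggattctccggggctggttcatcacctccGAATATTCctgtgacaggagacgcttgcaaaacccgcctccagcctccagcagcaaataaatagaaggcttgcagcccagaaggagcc
The ER chaperone genes carry the ER stress element, in capitals, at chr9:125241344-125241593 (minus strand) and chr12:103930160-103930409 (plus strand).
HSPA5: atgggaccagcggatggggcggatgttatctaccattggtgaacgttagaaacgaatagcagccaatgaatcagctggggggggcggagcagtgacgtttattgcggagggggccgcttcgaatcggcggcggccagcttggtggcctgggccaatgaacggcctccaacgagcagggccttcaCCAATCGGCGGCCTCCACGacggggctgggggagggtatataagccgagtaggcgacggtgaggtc
HSP90B1: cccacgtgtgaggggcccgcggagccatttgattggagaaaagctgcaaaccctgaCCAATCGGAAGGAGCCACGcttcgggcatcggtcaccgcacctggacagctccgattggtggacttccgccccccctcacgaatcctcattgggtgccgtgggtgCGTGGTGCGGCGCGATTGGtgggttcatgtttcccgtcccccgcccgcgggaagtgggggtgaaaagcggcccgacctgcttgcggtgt
Counted from the start, with -1 for the base just before it, the capitals begin at -230 and -55 in HSPA8, -165 and -112 in HSP90AB1, -131 in DNAJB6, -182 in HSPB1, -88 in HSPB8, -66 in HSPA5, and -194 and -89 in HSP90B1. Some of these matches are the reverse complement of the motif. The 7 members with the 3-unit element did not share a direction. DNAJA1 was called higher in a comparison, DNAJB6 and HSPA8 were called lower, and HSP90AA1, HSP90AB1 and HSPD1 were called in none. HSPA6 was tested in no comparison.

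Pre-neural crest cells were first set against ES cells. HSPB1, HSPB8 and HSPB2 of the small heat shock proteins, the HSP70 genes HSPA2 and HSPA12B, the HSP110 gene HSPA4L and the J protein genes DNAJA4 and DNAJB6 fell on day 3, by 2.40-fold to 53.5-fold. DNAJA1, DNAJB9 and DNAJC9 rose by 1.66-fold to 1.84-fold. Of 66 members tested, 3 were called higher (4.55%), where 8.96% of all tested genes were, and 8 were called lower (12.1%), where 11.6% of all tested genes were. In either direction the share was 16.7% of members and 20.6% of all genes, so calls among these genes were no more frequent than in the table at large. The median log2 ratio of FPKM + 1 was 0.02 over the members and 0.03 over all tested genes.

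Neural crest cells against pre-neural crest cells gave fewer calls. HSPA8, HSPA2, HSPA12B and HSPH1 fell on day 5, while HSPA4L and DNAJB14 rose. That made 2 of 67 members higher (2.99%, against 5.93% of all tested genes) and 4 lower (5.97%, against 6.68%). The members' median was -0.09 and that of all tested genes -0.04, and 80.6% of members and 76.5% of all genes stayed within 0.5 log2 units of no change.

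Across the whole course, neural crest cells against ES cells, DNAJB4 alone was called higher (1.49% of 67 tested members, against 12.2% of all tested genes). Called lower were 11 members (16.4%, against 14.7% of all tested genes): HSPB1, HSPB2, HSPB8, HSPA2, HSPA8, HSPA9, HSPA12B, HSPA4, DNAJA4, DNAJB6 and DNAJC11. The median over the members was 0.05 and that of all genes -0.01. Scaling the stages to an equal FPKM sum, chosen after the data were seen, raises each day 5 log2 ratio by 0.22 against day 3 and by 0.23 against day 0, and no called member changes direction under it. The 3 comparisons share their libraries, so their calls are not independent of each other.

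Calls of members depended on the threshold more for rises than for falls on day 3. At q below 0.01, 0 members were higher and 7 lower on day 3 against day 0 (5.83% and 7.99% of all tested genes), 0 and 1 on day 5 against day 3 (3.68% and 3.89%), and 0 and 6 on day 5 against day 0 (8.34% and 10.6%). With the normal p, which replaces the deposited p by the tail of a normal distribution at the test statistic, 0 were higher and 8 lower on day 3 against day 0 (5.68% and 8.97% of all genes), 0 and 1 on day 5 against day 3 (3.34% and 4.49%), and 0 and 7 on day 5 against day 0 (7.61% and 11.5%). Adjusted within day 5 against day 3 alone, 1 member was higher and 2 lower (4.98% and 5.52% of all genes). At an unadjusted p below 0.05 by Cuffdiff, 11 members were higher and 9 lower on day 3 against day 0 (16.7% and 13.6% of members, 13.9% and 15.9% of all tested genes). On day 5 against day 3 the numbers were 6 and 6 (8.96% each, against 9.84% and 11.3%), and on day 5 against day 0 they were 7 and 13 (10.4% and 19.4%, against 17.6% and 20.3%).

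**Figure D2:**
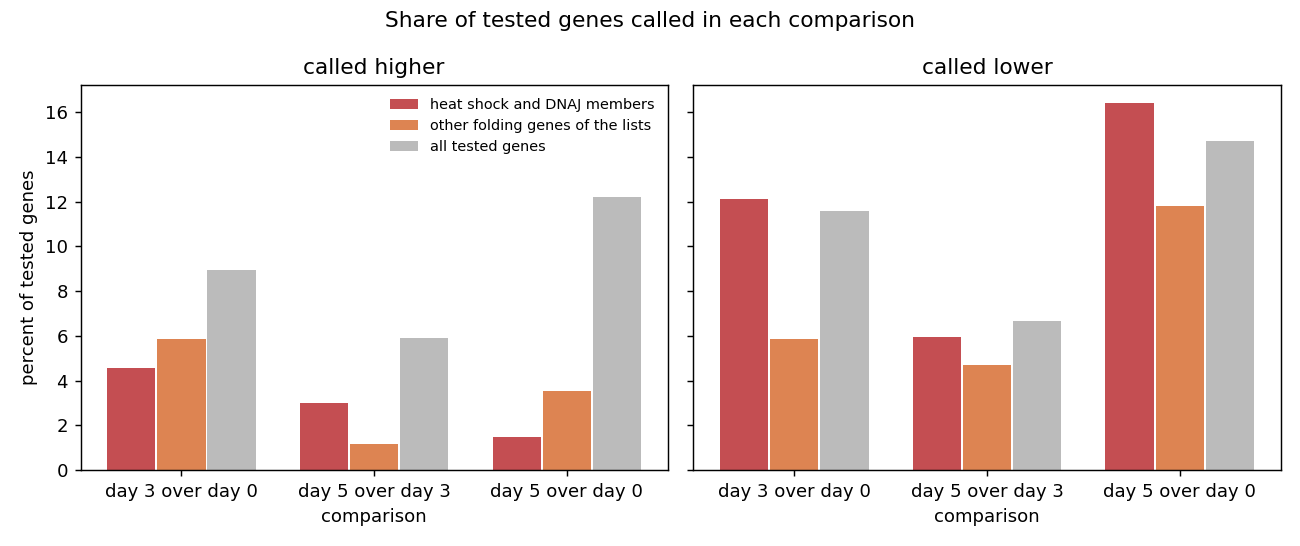
Percent of tested genes called higher or lower in each comparison, at a deposited q below 0.05: red for the heat shock and DNAJ genes, orange for the partner genes of the pathway lists, grey for all tested genes. The members' share of higher calls lies below that of all genes in each comparison, and their share of lower calls lies within 2 percentage points of it. The partner genes' lower share on day 3 against day 0, 5.88%, lies below the 12.1% of members and the 11.6% of all genes.

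The steepest fall of all members, that of HSPB8, was in the small heat shock proteins, where 3 of 8 genes were called and 2 were never tested. Of 6 tested, 3 were called lower on day 3 against day 0, where 11.6% of all tested genes were. On day 5 against day 0 it was 3 of 6, where 14.7% of all tested genes were called lower. HSPB1, the actin-associated chaperone HSP27 (hg19 chr7:75931875-75933614), stood at 302 FPKM on day 0, 75.3 on day 3 and 60.7 on day 5. Its log2 ratio was -2.01 ± 0.20 on day 3 and -2.32 ± 0.22 on day 5 relative to day 0, which is 4.02-fold and 4.98-fold lower. Its rank among all genes was 336, 1248 and 1375. HSPB8, which works with BAG3 in clearing misfolded proteins by autophagy (chr12:119616595-119632551), stood at 6.98, 0.131 and 0.395 FPKM. Day 3 was 53.5-fold below day 0 and day 5 was 17.7-fold below it, while the difference between day 5 and day 3 (1.60 ± 0.81) was not called (q = 0.0715 in the authors' deposited table). Both later stages lay below an FPKM of 1.

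HSPB2, a muscle-enriched member that binds the myotonic dystrophy kinase, had 10.8, 4.51 and 3.95 FPKM, 2.40-fold lower on day 3 and 2.74-fold lower on day 5 than on day 0. Of its 50-base words, 52.3% also occur in the readthrough gene HSPB2-C11orf52, so fragments may be shared. On day 3 against day 0, q was 0.000596 for HSPB1, 0.000596 for HSPB8 and 0.0335 for HSPB2 in the authors' deposited table. CRYAB, a small heat shock protein outside the symbol rule, had 11.1, 4.03 and 6.76 FPKM and was also lower on day 3 (-1.47 ± 0.44, q = 0.0126 in the authors' deposited table). HSPB11, a part of the intraflagellar transport complex, had 57.1, 47.7 and 60.2 FPKM and was not called, nor were HSPB6 and HSPB9, both at or below 1.37 FPKM. Muscle markers, a cell type rich in small heat shock proteins, summed to 15.8, 4.59 and 8.31 FPKM over 6 genes and were led by TNNT2 (12.7, 2.77 and 6.62 FPKM). The defining muscle factors MYOD1 and MYOG stayed at or below 0.205 FPKM, with MYOG at 0 on day 0. The part of other cell types in these falls was not tested.

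Within HSP70, 4 of 13 genes were called in some comparison, all lower at the later stage, and 2 were never tested. Of 11 tested, 2 were called lower on day 3 against day 0 (11.6% of all tested genes). On day 5, 3 were lower against day 3 (6.68%) and 4 against day 0 (14.7%). The classical inducible genes HSPA1A and HSPA1B were not called. HSPA8 (chr11:122928200-122932901) was 1.99-fold lower on day 5 than on day 3 (-0.99 ± 0.52) and 1.93-fold lower than on day 0 (-0.95 ± 0.50). Its levels on day 3 and day 0 differed by less than the implied error (0.04 ± 0.53). The q-values of the 2 calls were 0.0294 and 0.0460 in the authors' deposited table, and with the normal p both calls were lost (q = 0.25 on day 5 against day 3, and 0.246 on day 5 against day 0). HSPA2, a testis-enriched HSP70 needed for sperm formation in mice (chr14:65007186-65009954), had 35.2, 5.85 and 3.05 FPKM. It was 6.02-fold lower on day 3 than on day 0 (-2.59 ± 0.34) and 11.6-fold lower on day 5 (-3.53 ± 0.39). The step between day 5 and day 3 was 1.92-fold (q = 0.0408 in the authors' deposited table), a call lost with the normal p. HSPA8 exceeded HSPA2 29.9 times on day 0, 185 times on day 3 and 178 times on day 5.

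HSPA12B, a divergent HSP70 relative known from endothelial cells (chr20:3713317-3733758), had 3.35, 1.08 and 0.300 FPKM. It was called lower in all 3 comparisons, by 3.10-fold on day 3 against day 0, 3.60-fold on day 5 against day 3 and 11.2-fold on day 5 against day 0. The q-values were 0.00401, 0.00401 and 0.000596 in the authors' deposited table, in that order, and all 3 calls held with the normal p. Its paralogue HSPA12A had 0.753, 0.512 and 0.902 FPKM and was not called. The heat-inducible HSPA1A had 31.8, 46.5 and 39.7 FPKM and HSPA1B had 28.5, 39.0 and 32.5 FPKM. Both were placed on a haplotype contig of hg19 chromosome 6 and not on the main chromosome, so their values are uncertain. Neither was called, and since 71.3% of the 50-base words of HSPA1A occur in HSPA1B, reads from these words cannot be told apart. HSPA6, which in other cells is nearly silent without stress, stayed at or below 0.139 FPKM. HSPA5, the ER chaperone BiP, had 167, 177 and 141 FPKM with a day 5 to day 0 log2 ratio of -0.24 ± 0.42. HSPA9, the mitochondrial HSP70, had 140, 129 and 81.9 FPKM and was 1.71-fold lower on day 5 than on day 0 (-0.78 ± 0.38, q = 0.0273 in the authors' deposited table). That call was lost with the normal p (q = 0.206), and the HSPA9 locus overlaps the small RNA gene SNORD63.

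All 3 HSP110 genes within the symbol rule were called in some comparison. The share of all genes called in some comparison is not given here. HYOU1, an ER gene of this family outside the symbol rule, had 86.0, 79.6 and 73.6 FPKM and was called in none. In each comparison 1 of the 3 members was called lower, where 11.6%, 6.68% and 14.7% of all tested genes were. These shares are for day 3 against day 0, day 5 against day 3 and day 5 against day 0. On day 5 against day 3, 1 was also called higher (5.93% of all tested genes). HSPA4 had 136, 90.8 and 80.3 FPKM and was 1.69-fold lower on day 5 than on day 0 (-0.76 ± 0.41). HSPH1, a heat-inducible member, had 49.98, 74.2 and 44.6 FPKM and was 1.66-fold lower on day 5 than on day 3 (-0.73 ± 0.40). HSPA4L, a testis-enriched relative, had 2.20, 0.653 and 1.60 FPKM. It was 3.36-fold lower on day 3 than on day 0 (-1.75 ± 0.62) and 2.45-fold higher on day 5 than on day 3 (1.30 ± 0.62), with no call between day 5 and day 0. The q-values were 0.0351 for HSPA4, 0.0374 for HSPH1, and 0.000596 and 0.0230 for the fall and the rise of HSPA4L in the authors' deposited table. Of these 4 calls only the day 3 fall of HSPA4L was kept with the normal p.

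**Figure D3:**
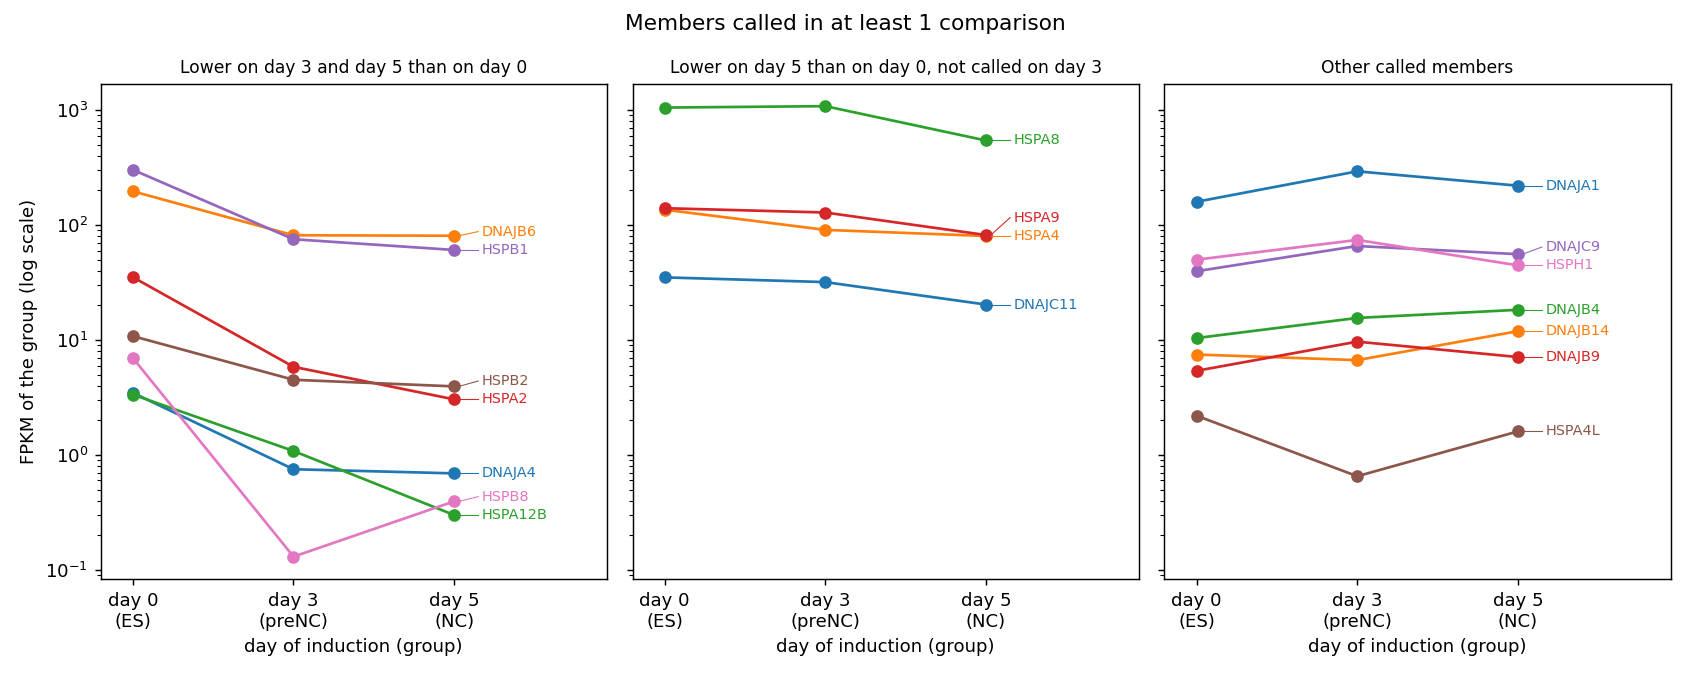
Levels of the 18 called members on day 0 (ES), day 3 (preNC) and day 5 (NC), as the authors' FPKM on a log axis, 1 line per gene, in panels by the comparisons in which each was called. HSPB8 falls to 0.131 FPKM on day 3, while HSPA8 stands at 1051 FPKM on day 0, 1082 on day 3 and 544 on day 5.

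The HSP90 genes, the family with the highest summed FPKM (2498, 2210 and 2055 on days 0, 3 and 5), and the mitochondrial chaperonin had no called member by Cuffdiff in any comparison, nor any at an unadjusted p below 0.05 (0 of 3 and 0 of 2 genes). HSP90AA1, the inducible alpha form, had 567, 755 and 595 FPKM, and HSP90B1, the ER form GRP94, had 526, 347 and 391 FPKM. The day 5 to day 0 log2 ratios were -0.39 ± 0.54 for HSP90AB1, 0.07 ± 0.48 for HSP90AA1 and -0.43 ± 0.44 for HSP90B1, each smaller than its implied error. The HSP90B1 locus overlaps the microRNA gene MIR3652. HSP90AB1 exceeded HSP90AA1 2.48 times on day 0, 1.47 times on day 3 and 1.80 times on day 5. HSPD1 had 552, 391 and 329 FPKM and its partner HSPE1 had 505, 381 and 283 FPKM. Their day 5 to day 0 log2 ratios were -0.75 ± 0.56 and -0.83 ± 0.78, and the genes share 1 locus, so the values are not independent.

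Among J proteins the 2 called genes with the largest log2 ratios fell. DNAJB6, which suppresses the aggregation of polyglutamine proteins (chr7:157129710-157210133), had 197, 81.5 and 80.7 FPKM, 2.41-fold lower on day 3 than on day 0 (-1.27 ± 0.38) and 2.44-fold lower on day 5 (-1.28 ± 0.39). DNAJA4 (chr15:78556487-78574538) had 3.47, 0.752 and 0.692 FPKM, 4.62-fold lower on day 3 than on day 0 (-2.21 ± 0.58) and 5.02-fold lower on day 5 (-2.33 ± 0.56). All 4 calls had q = 0.000596, the smallest value in the authors' deposited table, and held with the normal p. For both genes the change lay between day 0 and day 3, and day 5 stayed within the implied error of day 3.

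Rises among J proteins were smaller. DNAJA1, a farnesylated partner of cytosolic HSP70 (chr9:33025209-33039062), had 159, 293 and 220 FPKM and was 1.84-fold higher on day 3 than on day 0 (0.88 ± 0.35, q = 0.0115 in the authors' deposited table). DNAJC9, which is also a chaperone of histones H3 and H4, had 39.7, 65.7 and 55.8 FPKM and was 1.66-fold higher on day 3 (0.73 ± 0.33). DNAJB9, an ER partner of BiP, had 5.40, 9.68 and 7.11 FPKM and was 1.79-fold higher on day 3 (0.84 ± 0.48). DNAJB14, an ER membrane J protein, had 7.48, 6.68 and 11.9 FPKM and was 1.79-fold higher on day 5 than on day 3 (0.84 ± 0.44). DNAJB4 had 10.4, 15.6 and 18.3 FPKM and was 1.76-fold higher on day 5 than on day 0 (0.82 ± 0.43). With the normal p none of these 5 rises was called, the smallest adjusted value being 0.0743, for DNAJA1.

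DNAJB1, the classical heat-inducible HSP40, had 35.6, 54.6 and 38.1 FPKM and was not called (day 3 over day 0, 0.61 ± 0.35, q = 0.0964 in the authors' deposited table). In the DNAJC group, 25 of 30 members reached an FPKM of 1 on some day, 3 were never tested and 2 were called. On day 3 against day 0, 1 of 26 tested was called higher (8.96% of all tested genes), which was DNAJC9. On day 5 against day 0, 1 of 27 tested was called lower (14.7% of all tested genes). This was DNAJC11, a mitochondrial cristae protein with 35.1, 31.9 and 20.3 FPKM, 1.72-fold lower on day 5 than on day 0 (-0.79 ± 0.42). Its locus overlaps THAP3, and the call was lost with the normal p. DNAJC8, a protein linked to splicing, was the most abundant of the group at 101, 110 and 92.9 FPKM and was not called. DNAJC12, a co-chaperone of aromatic amino acid hydroxylases, had 1.27, 1.00 and 2.46 FPKM, with a day 5 to day 3 log2 ratio of 1.29 ± 0.77 that was not called (q = 0.0543 in the authors' deposited table). DNAJB13, an axonemal J protein, stayed at or below 0.452 FPKM. Multiciliated cell markers summed to 3.19, 4.85 and 9.39 FPKM, led by FOXJ1 at 2.24, 2.94 and 7.36 FPKM.

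Most J proteins and several HSP70 relatives were called in no comparison. DNAJC7, a co-chaperone that also binds HSP90, had 72.4, 73.9 and 51.8 FPKM, and DNAJA2, a general partner of HSP70, had 39.8, 29.3 and 26.99 FPKM. The ribosome-bound pair DNAJC2 and HSPA14 had 32.5, 31.2 and 19.9 FPKM, and 21.5, 23.5 and 18.9 FPKM. In the ER, the BiP partner DNAJB11 had 44.3, 51.3 and 49.3 FPKM, the disulfide reductase DNAJC10 had 35.7, 39.1 and 41.6 FPKM, and HSPA13 had 14.8, 17.8 and 23.3 FPKM. In mitochondria, DNAJA3 had 27.1, 24.4 and 17.8 FPKM and the import motor subunit DNAJC19 had 35.5, 32.1 and 31.0 FPKM. Of genes known from nerve cells, DNAJB2 had 16.6, 25.7 and 25.4 FPKM, the cysteine string protein gene DNAJC5 had 11.9, 15.6 and 14.6 FPKM, and the auxilin gene DNAJC6, which uncoats clathrin vesicles, had 1.49, 1.41 and 2.51 FPKM. In all, 59 of the 77 members were called in no comparison, and these include 10 that were tested in none. The same share over all genes is not given here, so the count is not a result particular to these genes.

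**Figure D4:**
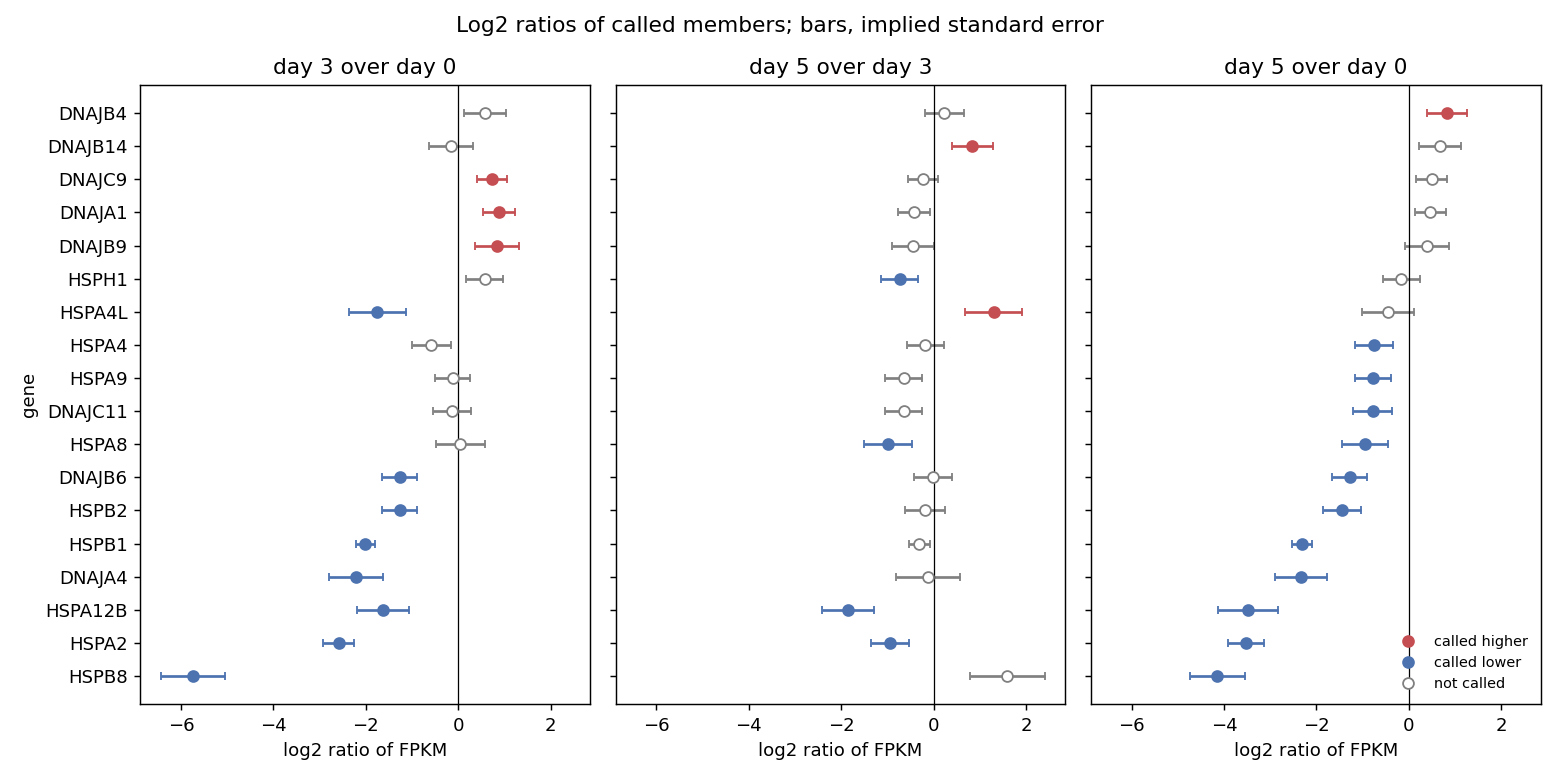
Log2 ratios of the called members in the 3 comparisons, later stage over earlier stage, with bars for the standard error implied by the authors' test statistic. HSPB8, HSPA2 and HSPA12B lie farthest below 0 on day 5 against day 0, at -4.14, -3.53 and -3.48.

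Sorted by compartment, few ER chaperones were called. For these short lists the shares of all tested genes called higher and lower were 8.96% and 11.6% on day 3 against day 0, 5.93% and 6.68% on day 5 against day 3, and 12.2% and 14.7% on day 5 against day 0. Of 14 ER members tested, DNAJB9 was called higher on day 3 against day 0, DNAJB14 higher on day 5 against day 3, and none on day 5 against day 0 by Cuffdiff, where 3 were higher at an unadjusted p below 0.05. Of 9 mitochondrial members, none was called in the first 2 comparisons, where 0 and 2 had an unadjusted p below 0.05, and HSPA9 and DNAJC11 were lower on day 5 against day 0. The stress-inducible list, mostly cytosolic, also held HSPD1 and HSPE1, which are counted among the mitochondrial members too. Among its 9 tested members, 1 was called in each direction on day 3: DNAJA1 rose and HSPB1 fell on day 3 against day 0. HSPH1 fell on day 5 against day 3, and HSPB1 was lower on day 5 against day 0. Among 16 constitutive cytosolic members, 1 rose and 3 fell on day 3 against day 0, 0 rose and 2 fell on day 5 against day 3 (1 higher and 2 lower at an unadjusted p below 0.05 by Cuffdiff), and 1 rose and 4 fell on day 5 against day 0, where 12.2% of all tested genes were called higher and 14.7% lower.

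Partner genes outside the symbol rule were taken from listed pathways. Of 85 tested, 5 were called higher and 5 lower on day 3 against day 0 (5.88% each), 1 higher and 4 lower on day 5 against day 3 (1.18% and 4.71%), and 3 higher and 10 lower on day 5 against day 0 (3.53% and 11.8%). Of all tested genes, 8.96% and 11.6%, 5.93% and 6.68%, and 12.2% and 14.7% were called higher and lower in these comparisons. With the normal p, 2 of 10, 2 of 5 and 9 of 13 of these calls held, in the same order. HSF2, a heat shock factor active in development, had 10.8, 21.5 and 25.3 FPKM and rose on day 3 (0.99 ± 0.39) and on day 5 (1.23 ± 0.39) relative to day 0. With the normal p its day 3 call was lost and its day 5 call was kept. HSF1 had 41.0, 44.5 and 32.5 FPKM and was not called.

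Of 24 HSP70 and HSP90 co-chaperones, FKBP5 and BAG1 rose and FKBP4 fell on day 3 against day 0. That made 2 higher and 1 lower, where 8.96% and 11.6% of all tested genes were. With the normal p, 1 of these calls held. FKBP4, an HSP90-bound immunophilin, had 78.0, 28.0 and 26.3 FPKM (-1.48 ± 0.38 on day 3 and -1.57 ± 0.38 on day 5 relative to day 0). BAG2, an HSP70 nucleotide exchange factor, had 14.3, 15.5 and 5.41 FPKM and fell on day 5 against day 3 (-1.51 ± 0.43). BAG1, another exchange factor, had 10.3, 17.7 and 9.92 FPKM and fell on day 5 against day 3. BAG1 and BAG2 were the 2 co-chaperones called lower in that comparison, where 6.68% of all tested genes were. Of their 2 calls, 1 held with the normal p. None of 15 subunits of the cytosolic chaperonin TRiC and prefoldin was called by Cuffdiff in any comparison, with 1, 0 and 0 at an unadjusted p below 0.05 on day 3 against day 0, day 5 against day 3 and day 5 against day 0.

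Of 25 tested ER folding and unfolded protein response genes, SIL1 and ATF6 rose on day 5 against day 0, and SDF2L1, ATF4 and TRIB3 fell. That made 2 higher and 3 lower, where 12.2% and 14.7% of all tested genes were. With the normal p, 4 of these calls held. SIL1, the exchange factor of BiP, had 3.30, 6.95 and 10.1 FPKM, and the stress sensor ATF6 had 3.15, 3.54 and 7.30 FPKM. ATF4, a transcription factor of the stress response, had 483, 322 and 211 FPKM and was lower on day 5 (-1.20 ± 0.41). Of 14 mitochondrial folding and protease genes, 4 were lower on day 5 against day 0, where 14.7% of all tested genes were. None was higher, where 12.2% of all tested genes were, nor was any higher at an unadjusted p below 0.05 by Cuffdiff. Of the 4 calls, 2 held with the normal p. TRAP1, the mitochondrial HSP90, had 108, 66.5 and 64.8 FPKM, the protease LONP1 62.1, 39.2 and 29.9 FPKM, and the import factor TIMM44, which tethers HSPA9, 44.7, 40.2 and 22.9 FPKM.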

How the data were processed

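RNA from 6 libraries, 2 per stage, was used as 1 table of group values. Per the submitters' processing notes, the tools were TopHat (an unversioned entry and TopHat2 2.0.10) and Cuffdiff 2.1.1, with hg19 as the build. Which annotation was used, and whether reads carried strand, is not given in the sources used here. Per the file headers, the table gives the authors' FPKM per group, with libraries combined, and Cuffdiff's test statistic, used here as a score, with its deposited p-value and q-value. No value per library was used, so depth is unknown and no SD, interval or replicate check is given; the lowest 1000 FPKM values of a group held 980 or more distinct values, so whole reads were not recovered. The deposited q-values equal Benjamini-Hochberg adjustment of the deposited p-values over all 48572 tested rows to within 5.25e-07, and no p lies below 5e-05.

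Members were matched by symbol, and calls are the authors' tests at q below 0.05, with 0.01, a normal p of the test statistic, adjustment within a comparison and an FPKM minimum of 1 as alternatives. Lists were compared on log2(FPKM + 1), with pseudocounts of 0.1 and 5 as alternatives, and log2 ratios of single genes carry no pseudocount. Values are uncertain for 25 members. Of these, 19 overlap another locus and 3 (HSPA1A, HSPA1B and HSPA1L) lie on a haplotype contig. Also, 8 share at least 20% of their 50-base words with another gene in GENCODE 29, which is not known to be the authors' annotation. Loci are given 1-based in hg19. Named are all called members, those at an FPKM of 100 or more, and from each partner list up to 4 called genes with the largest change; HSF1 and uncalled members named for contrast were chosen after their values were seen. Members and lists were chosen with earlier results of these data known. Scripts used Python 3.11.15, pandas 2.3.3, NumPy 2.4.6 and SciPy 1.17.1 and were tested on simulated data.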

Additional observations from a re-analysis of the deposited data

How the results depend on the processing

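At q below 0.01 the members called higher numbered 0 in each of the 3 comparisons (11, 6 and 7 members were higher at an unadjusted p below 0.05 by Cuffdiff, on day 3 against day 0, day 5 against day 3 and day 5 against day 0), and with the normal p they also numbered 0. Members called lower numbered 1 on day 5 against day 3 at q below 0.01 and 1 with the normal p (HSPA12B both times), and 6 and 7 on day 5 against day 0. Adjusted within the comparison, day 5 against day 3 gave 1 higher (HSPA4L) and 2 lower (HSPA12B and HSPA8). With the normal p, 13 of the 29 calls among the 75 named member ratios were lost and 16 were kept. With FPKM scaled to an equal sum the members' median became 0.10 on day 5 against day 3 and 0.23 on day 5 against day 0, and with 3 small RNA genes left out of the sum 0.0244 and 0.16.

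Reversed signs occurred only in uncalled ratios. Centred on the median of all genes, HSPA8 became -0.0106 on day 3 against day 0, and DNAJB6 0.0469 and HSP90AB1 0.0087 on day 5 against day 3. Scaled to an equal sum, day 5 against day 3 gave 0.10 for DNAJA4, 0.21 for DNAJB6, 0.17 for HSP90AB1, 0.0465 for HSPA4 and 0.0322 for HSPB2, and day 5 against day 0 gave 0.11 for DNAJC8 and 0.0682 for HSPH1. Without the small RNA genes DNAJA4 stood at 0.0262, DNAJB6 at 0.13 and HSP90AB1 at 0.0944 on day 5 against day 3, and DNAJC8 at 0.0134 on day 5 against day 0. The equal-sum scalings were added after seeing the data, and no test was recomputed under them or under the centring; the cause was not tested. No paired analysis was possible because the table holds no value per library, and leaving out single libraries was not run for the same reason.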
